A study of Homo sapiens with 6 samples.

Results

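The genes that make bile acids from cholesterol, together with the receptors, the hormone and the transporters that control them, were followed in HepG2 cells given TGFβ. They are 10 of the 57773 genes in the count table: the hydroxylases CYP7A1, CYP8B1, CYP27A1 and CYP7B1, the nuclear receptors NR1H4, NR0B2 and NR5A2, the hormone FGF19, and the transporters ABCB11 and SLC10A1. The group was chosen from the comparison described here, because CYP7A1 was among the genes with the largest falls in it, and the others were taken by name for their place in the same pathway. The values of the 10 genes between TGFβ and vehicle are therefore a description and not independent evidence.

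RNA was sequenced from 6 cultures of HepG2, an established line from a human liver tumor grown as a monolayer and used at low passage. The 3 TGFβ cultures received recombinant human TGFB1 at 5 ng/mL for 3 h, and the 3 vehicle cultures received the vehicle of the ligand for the same time, in serum-free medium according to the methods of the study, while the labels name medium with 10% FBS for growth and no change of medium. The comparison asks which genes respond to the ligand within 3 h in this 1 line. Cultures were numbered 1 to 3 in each group. Vehicle culture 3 was sequenced on lane 4 and TGFβ culture 3 on lane 5, and the labels give no other difference between the groups. The gene counts of a culture summed to between 60815385 and 100099136 reads. Levels are given as CPM, counts scaled to a common library size with TMM factors, and changes as log2 fold changes of TGFβ over vehicle with their standard error (SE). FDR values are Benjamini-Hochberg adjusted over the 22747 genes with enough reads and come from the quasi-likelihood test of edgeR.

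Bile acids are made in hepatocytes. In the classic route CYP7A1 adds the first hydroxyl group to cholesterol and sets the rate, and CYP8B1 then decides how much cholic acid is formed. In the alternative route CYP27A1 and CYP7B1 hydroxylate the side chain and the ring. Bile acids bind the receptor FXR, encoded by NR1H4. FXR induces SHP, encoded by NR0B2, which restrains LRH-1 (NR5A2) on the CYP7A1 promoter. FXR also induces FGF19, which lowers CYP7A1 through FGFR4 and its partner KLB. The pump BSEP (ABCB11) carries bile salts into bile, and NTCP (SLC10A1) takes them up from blood.

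Markers of hepatocytes were present in every culture, at levels that differed widely. ALB had a mean of 16024 CPM with vehicle and APOB of 9721 CPM, while TTR had 53.9 CPM and TFR2 34.2 CPM. With edgeR, 0 of the 9 hepatocyte markers passed an FDR of 0.05, against 4.12% of all tested genes in either direction. At an unadjusted P under 0.05, 0 were higher and 0 lower, against 8.69% and 4.97% of all tested genes. DESeq2 also called 0 higher and 0 lower, against 4.44% and 1.78%, and so did limma-voom, against 2.99% and 0.932%. With the culture number as a block, TTR and FGB were lower (log2 fold changes -0.25 and -0.22 in that fit). They were 22.2% of the markers, against 3.75% of all tested genes, and 0 were higher, against 8.08%. MARCO was at 0 reads in every culture and PTPRC had 1 read in all, CDH5, VWF and DES had at most 14 reads per culture, while CD68, ACTA2, COL1A1 and PDGFRB were present in all cultures. COL1A1 and PDGFRB had higher CPM in each TGFβ culture than in any vehicle culture, as did 10.4% of all tested genes. Their log2 fold changes were 0.57 and 1.22 (FDR 0.193 and 0.0582, and 0.00806 and 7.25e-06 with the block). Their part in the results below was not tested. SMAD7, SKIL and PMEPA1, targets of TGFβ signaling that check the treatment labels, rose in every TGFβ culture, by log2 fold changes between 1.72 and 4.30 (FDR at most 4.41e-05).

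Per length of transcript, the 10 genes spanned a wide range in HepG2, and the rate-setting enzyme was in the middle of the order with vehicle and the lowest of the 8 genes with enough reads with TGFβ. On the RPKM scale of the deposited table, CYP27A1 was highest with vehicle at 64.5 ± 8.42 RPKM (SD, n = 3), followed by NR0B2 at 23.8 ± 8.37 and NR1H4 at 16.3 ± 0.917. The ranges of these 3 genes over the vehicle cultures did not overlap, although NR0B2 at its lowest (18.6) was close to NR1H4 at its highest (17.3). CYP8B1 stood 38.6-fold below NR1H4, at 0.422 ± 0.0366 RPKM. CYP7A1 (0.110 ± 0.0683), SLC10A1 (0.109 ± 0.0165), NR5A2 (0.0859 ± 0.0278) and CYP7B1 (0.0729 ± 0.0283) followed, and neighbors in this order overlapped. ABCB11 was at 0.00291 ± 0.00264 RPKM, and FGF19 had 0 reads in the vehicle cultures. With TGFβ, CYP7A1 was at 0.0180 ± 0.00657 RPKM, below SLC10A1 (0.103 ± 0.0478), NR5A2 (0.0689 ± 0.0289) and CYP7B1 (0.0430 ± 0.0198). The ranges of CYP7A1 and CYP7B1 over the TGFβ cultures did not overlap. However, CYP7A1 at its highest (0.0256, from 9 reads) was close to CYP7B1 at its lowest (0.0271, from 6 reads).

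**Figure D1:**
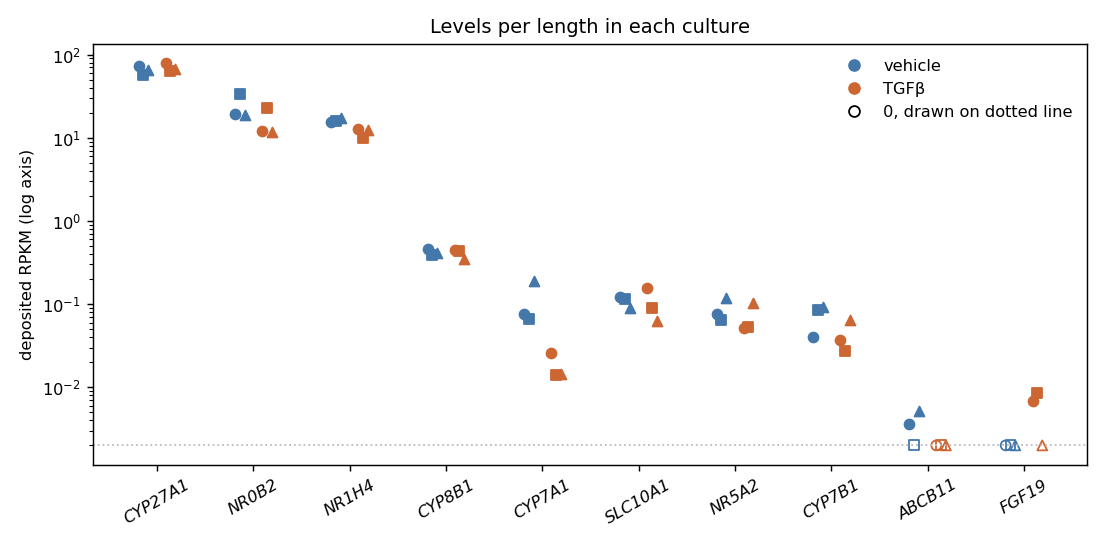
Deposited RPKM (log axis) of the 10 genes in each culture, ordered by the vehicle mean. Blue marks are vehicle and orange TGFβ, circles, squares and triangles are culture numbers 1, 2 and 3, and open marks on the dotted line stand for 0. CYP27A1, NR0B2 and NR1H4 lie above 9 RPKM in all 6 cultures and the other 7 genes below 1.

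CYP7A1 (ENSG00000167910; chromosome 8, 59402737 to 59412795 in hg19, the build of the table) was lower in each TGFβ culture than in any vehicle culture. It had 24, 19 and 42 reads in vehicle cultures 1, 2 and 3 and 9, 4 and 4 reads in TGFβ cultures 1, 2 and 3. These are 0.272, 0.229 and 0.682 CPM with vehicle and 0.0929, 0.0497 and 0.0549 CPM with TGFβ. The highest value, in vehicle culture 3, was 2.97 times the lowest of its group, and its exact 95% counting interval (0.492 to 0.922 CPM) did not overlap those of vehicle cultures 1 (0.174 to 0.405) and 2 (0.138 to 0.358). The interval of TGFβ culture 1 (0.0425 to 0.176) overlapped those of vehicle cultures 1 and 2. That of TGFβ culture 3 (0.0150 to 0.1405) overlapped that of vehicle culture 2. Overlapping intervals do not show that counts agree, and single pairs of cultures were not tested. These intervals cover counting error only.

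**Figure D2:**
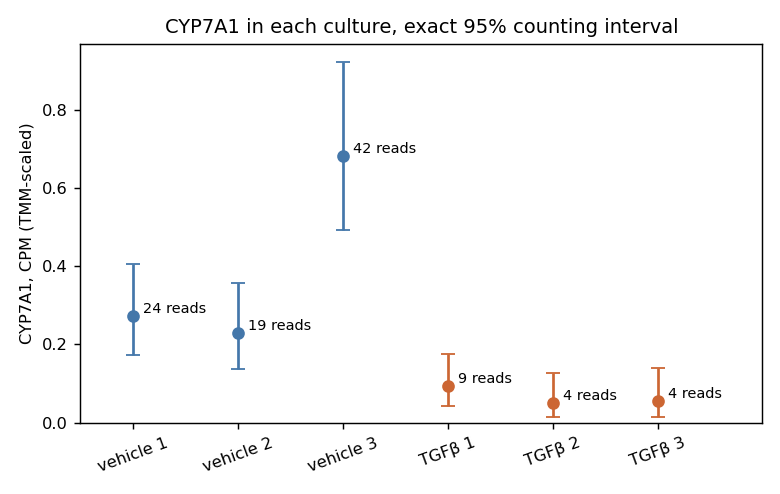
CYP7A1 in CPM (TMM-scaled) for each culture, with its read count and the exact 95% Poisson interval of that count as bars. The 3 TGFβ cultures lie at or below 0.0929 CPM and the vehicle cultures at or above 0.229, with vehicle culture 3 apart at 0.682.

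Over the groups, the vehicle cultures held 85 reads of CYP7A1 and the TGFβ cultures 17, and the fitted log2 fold change was -2.48 (SE 0.53), or 5.59-fold lower. It was the second lowest of the log2 fold changes of all genes tested, which is the value it was chosen for. Within culture numbers 1, 2 and 3 the difference in log2 CPM was -1.33, -1.77 and -3.15. Without vehicle culture 3 the log2 fold change was -1.88 and the FDR threshold was missed, as it was without TGFβ culture 2 (-2.33) or TGFβ culture 3 (-2.38). In bulk RNA, fewer cells with CYP7A1 RNA and less of it per cell cannot be told apart.

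The other steps of synthesis did not show this pattern. CYP8B1 (ENSG00000180432, chromosome 3, 42897497 to 42917633), the 12α-hydroxylase, had 2.50, 2.04 and 2.22 CPM in vehicle cultures 1, 2 and 3 and 2.44, 2.32 and 1.96 CPM in TGFβ cultures 1, 2 and 3. The groups overlapped almost fully, and the log2 fold change was -0.01 (SE 0.17, FDR 0.990). CYP8B1 lies within ACKR2 on the other strand, and 142 of its exon bases (3.4%) are also exon of ACKR2 in GENCODE on GRCh37. Of the other genes spanning it, ACKR2 (0.63, FDR 0.157, and 0.046 with the block) and RP11-141M3.5 (0.29, FDR 0.833) had positive log2 fold changes that missed the threshold without the block, and the 2 entries named KRBOX1 had at most 6 reads per culture.

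CYP27A1 (ENSG00000135929, chromosome 2, 219646472 to 219680016), the mitochondrial sterol 27-hydroxylase, had 267, 197 and 235 CPM in vehicle cultures 1, 2 and 3 and 290, 227 and 259 CPM in TGFβ cultures 1, 2 and 3. Each TGFβ culture was above the vehicle culture of its number, by 0.12, 0.20 and 0.14 on the log2 scale, but the groups overlapped. The log2 fold change was 0.15 (SE 0.12, FDR 0.715), and 0.15 with the block (SE 0.05, FDR 0.0622). The promoter of CYP27A1 is shown because it belongs to the most abundant of the 10 genes. The 250 bases before its start site, from RefSeq on GRCh38.p14, plus strand, chr2:218781897-218782146, hold the SMAD core CAGAC at 244 to 240 bases before the start and its reverse complement GTCTG at 25 to 21 bases before it, which are in capitals.
CYP27A1: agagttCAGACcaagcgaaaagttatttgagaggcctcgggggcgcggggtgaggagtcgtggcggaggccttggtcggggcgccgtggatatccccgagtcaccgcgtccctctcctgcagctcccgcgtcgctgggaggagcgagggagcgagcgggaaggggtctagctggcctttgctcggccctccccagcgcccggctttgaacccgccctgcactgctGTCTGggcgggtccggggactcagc
Such a core, on either strand, stands in 38.0% of the 35116 RefSeq promoters of this length, and neither CAAGGTCA, the form bound by LRH-1, nor the HNF4 site CAAAGTCCA was found in this window.

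CYP7B1 (ENSG00000172817, chromosome 8, 65500320 to 65711318), the oxysterol 7α-hydroxylase of the alternative route, had 10, 19 and 16 reads in vehicle cultures 1, 2 and 3 and 10, 6 and 14 in TGFβ cultures 1, 2 and 3. The values in CPM were 0.113, 0.229 and 0.260 with vehicle and 0.103, 0.0746 and 0.192 with TGFβ. Within numbers 1, 2 and 3 the log2 CPM differed by -0.11, -1.35 and -0.39. The groups overlapped, and the log2 fold change was -0.69 (SE 0.47, FDR 0.632). The scaled ratio of its pooled reads, TGFβ over vehicle, was 0.620 with an exact 95% counting interval from 0.377 to 1.01. This interval leaves out the spread between cultures, and no change of this gene was called. RP11-1D12.1, which overlaps it, had 2 reads in all.

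Each of the 3 nuclear receptors had lower values with TGFβ within every culture number. NR1H4 and NR0B2 passed the test with the block, while NR5A2 did not (FDR 0.454). The share of all tested genes that fell within every number is not given, so no shared fall is read from this. NR1H4 (ENSG00000012504, chromosome 12, 100867486 to 100958191), the bile acid receptor FXR, had 66.0, 65.0 and 73.5 CPM in vehicle cultures 1, 2 and 3 and 53.6, 41.5 and 55.5 CPM in TGFβ cultures 1, 2 and 3. All TGFβ values lay below all vehicle values. The log2 fold change was -0.44 (SE 0.11, FDR 0.0613), or 1.36-fold lower, and with the block it was -0.45 (SE 0.07, FDR 0.000984). The threshold was also passed with DESeq2 (FDR 0.00998), with total-count scaling (FDR 0.0383), without a filter (FDR 0.00392) and without TGFβ culture 3 (FDR 0.0312). The pseudogene RP11-575G13.3 inside NR1H4 had 2 reads in all.

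The 250 bases before the RefSeq start site used here for NR1H4 lie on GRCh38.p14, plus strand, chr12:100503110-100503359. They are shown because NR1H4 was, beside CYP7A1, the gene whose groups did not overlap.
NR1H4: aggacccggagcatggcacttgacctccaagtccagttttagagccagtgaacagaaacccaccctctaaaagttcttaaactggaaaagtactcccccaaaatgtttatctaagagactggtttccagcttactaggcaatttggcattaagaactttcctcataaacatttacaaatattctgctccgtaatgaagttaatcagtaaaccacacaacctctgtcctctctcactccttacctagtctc
None of CAGAC, CAAGGTCA and CAAAGTCCA was found here on either strand, so no letter is in capitals. The last pair of motifs stood in 1.14% and 0.325% of all promoters of this length. Sequence before any other start site of NR1H4 was not searched. Promoters of 4 of the 10 genes were matched in the RefSeq table, and those of ABCB11 and SLC10A1 held none of the 3 motifs.

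NR0B2 (ENSG00000131910, chromosome 1, 27237980 to 27240457), the corepressor SHP, had 27.5, 45.6 and 26.3 CPM in vehicle cultures 1, 2 and 3 and 17.0, 32.1 and 17.4 CPM in TGFβ cultures 1, 2 and 3. Culture number 2 was high in both groups, so that TGFβ culture 2 lay above vehicle cultures 1 and 3, and the groups overlapped. Within culture numbers 1, 2 and 3 the difference in log2 CPM was -0.69, -0.50 and -0.60. Without the block the log2 fold change was -0.58 (SE 0.27, FDR 0.395), and with it -0.60 (SE 0.06, FDR 6.76e-05) and a level with TGFβ of 66.9% of vehicle by the fit without the block. It was -0.28 without vehicle culture 2 and -0.96 without TGFβ culture 2. NR0B2 lies inside NUDC on the other strand, with 0 shared exon bases in GENCODE on GRCh37, and NUDC had a log2 fold change of -0.00 (FDR 0.993).

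NR5A2 (ENSG00000116833, chromosome 1, 199996730 to 200146552), the receptor LRH-1 that drives CYP7A1 and NR0B2, was scarce. It had 0.725, 0.591 and 1.12 CPM in vehicle cultures 1, 2 and 3 and 0.495, 0.497 and 1.03 CPM in TGFβ cultures 1, 2 and 3. Culture number 3 was highest in both groups, the differences in log2 CPM within numbers 1, 2 and 3 were -0.53, -0.24 and -0.12, and the groups overlapped (log2 fold change -0.27, SE 0.35, FDR 0.840). The small RNA genes and the pseudogene inside it, RNU6-570P, AC096633.1 and RP11-47A17.2, had at most 2 reads per culture.

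FGF19 (ENSG00000162344, chromosome 11, 69513000 to 69519410) and ABCB11 (ENSG00000073734, chromosome 2, 169779448 to 169887832) were at the limit of detection. FGF19, the hormone of the feedback loop, had 0 reads in every vehicle culture and 2, 2 and 0 in TGFβ cultures 1, 2 and 3. For ABCB11, the bile salt pump, vehicle cultures 1, 2 and 3 held 2, 0 and 2 reads and every TGFβ culture 0. All these counts are below 3 reads per library, the limit that a count of 0 allows, which is between 0.0310 and 0.0487 CPM here, so no fold is given for either gene. SLC10A1 (ENSG00000100652, chromosome 14, 70242134 to 70264006), the uptake carrier NTCP, had 0.306, 0.278 and 0.227 CPM in vehicle cultures 1, 2 and 3 and 0.392, 0.224 and 0.165 CPM in TGFβ cultures 1, 2 and 3. The TGFβ values spread around the vehicle values on either side (log2 fold change -0.04, SE 0.37, FDR 0.980).

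**Figure D3:**
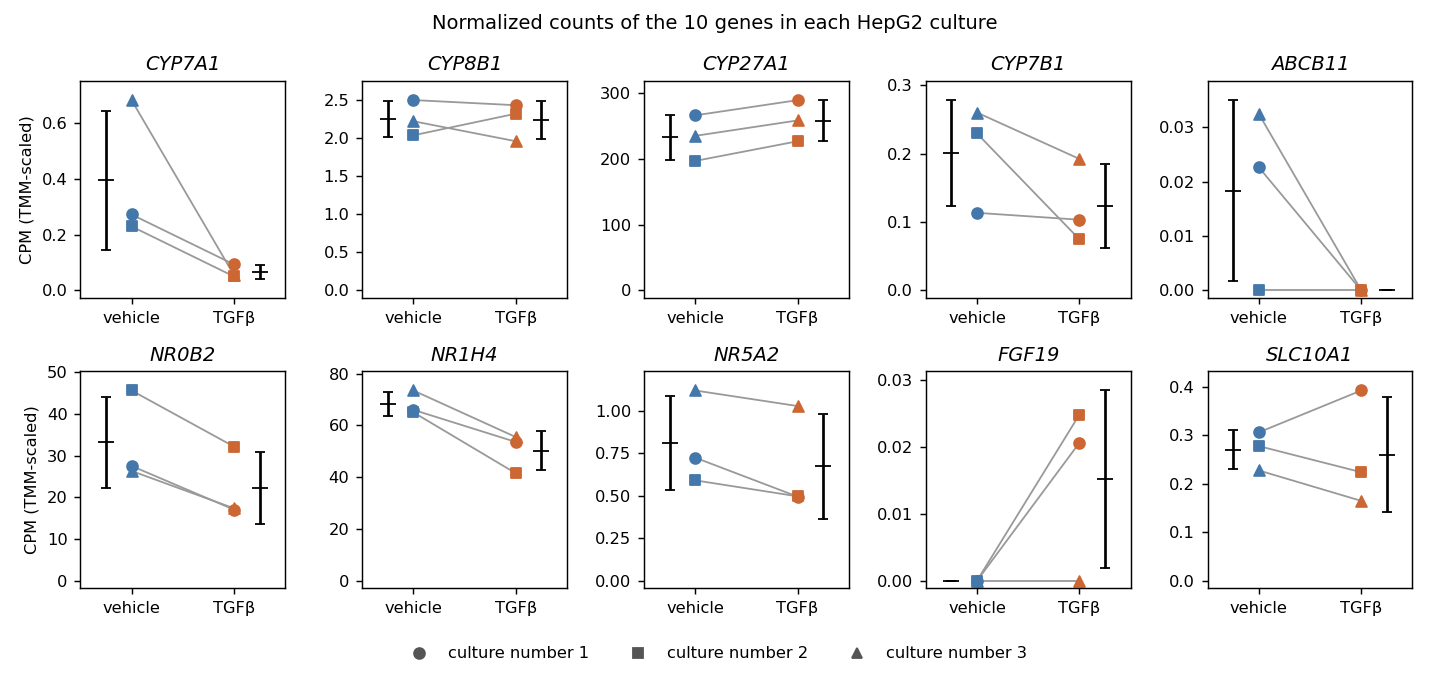
CPM (TMM-scaled) of the 10 genes in vehicle (blue) and TGFβ (orange) cultures, 1 panel per gene with its own axis. Gray lines join cultures with the same number, and black bars are the mean ± SD of 3 cultures. Each of the 3 lines falls for CYP7A1, NR0B2, NR1H4, CYP7B1 and NR5A2, with groups apart for CYP7A1 and NR1H4. The share of all tested genes with 3 falling lines is not given.

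Of the 10 genes, 8 had enough reads for the test. At an FDR under 0.05, 1 of these (12.5%) was lower with TGFβ, CYP7A1, against 1.01% of all genes tested, and 0 were higher, against 3.11% (4.12% of all genes in either direction). At an unadjusted P under 0.05, which 4.97% of all tested genes passed as lower and 8.69% as higher, 2 were lower and 0 higher. DESeq2 and limma-voom also called 0 higher, against 4.44% and 2.99% of all genes. The count of lower genes was 0 without vehicle culture 3 or TGFβ culture 2. With the culture number as a block, 3 were lower, CYP7A1, NR0B2 and NR1H4, against 3.75% of all genes, and 0 were higher, against 8.08%. In 2 of the 8 genes all TGFβ values lay below all vehicle values, against 8.23% of all genes, and in 0 above, against 10.4%. The median log2 fold change of the 8 genes was -0.35, and that of all tested genes -0.01. Since the comparison itself chose the group, nothing is read from these shares.

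**Figure D4:**
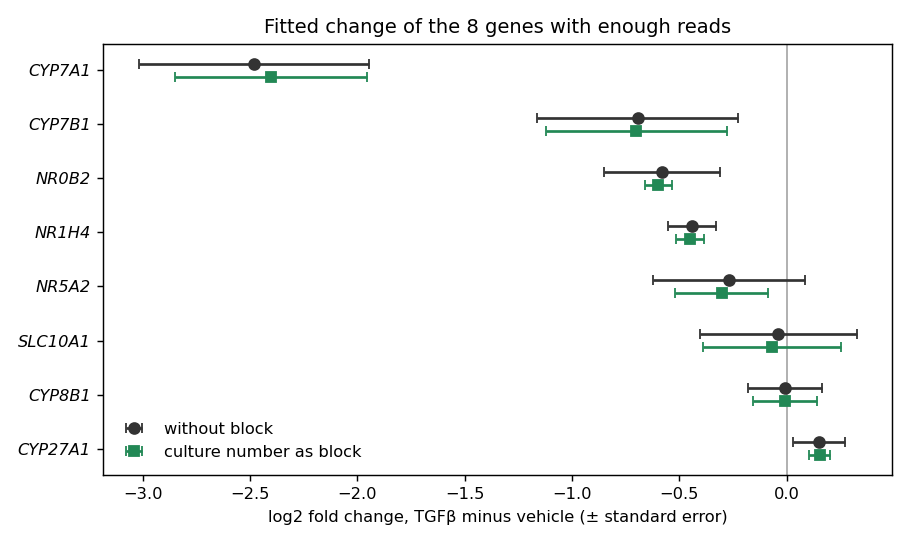
Fitted log2 fold change of TGFβ over vehicle (± standard error) for the 8 genes with enough reads, without a block (black circles) and with the culture number as a block (green squares). The block narrows the error of NR0B2 from 0.27 to 0.06 while its value stays at about -0.6, and CYP7A1 lies apart from the rest at -2.48.

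The cultures with the same number varied together in these genes. In 7 of the 8 (87.5%), the same number was highest with vehicle and with TGFβ, as it was for 52.7% of all tested genes. Number 1 was highest in both groups for CYP8B1, CYP27A1 and SLC10A1, number 2 for NR0B2, and number 3 for NR1H4, NR5A2 and CYP7B1. CYP7A1 was the exception, with vehicle culture 3 and TGFβ culture 1 highest. Number 1 was run on lane 1 and number 2 on lane 3 in both groups, whereas vehicle culture 3 was on lane 4 and TGFβ culture 3 on lane 5. The cultures numbered 3 thus shared no lane, and lane and number cannot be told apart for numbers 1 and 2.

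The genes whose levels moved most like those of CYP7A1 over the 6 cultures were FBXO41 (Pearson's r 0.994), MTPAP (0.993), EAF1 (0.993), TMEM69 (0.993) and GPR3 (0.990), among 15899 genes with a mean of at least 1 CPM. All 5 were lower by log2 fold changes between -0.39 and -0.19, none of which passed the threshold (FDR between 0.0746, for FBXO41, and 0.349). With the block FBXO41 (FDR 0.00738) and EAF1 (FDR 0.0179) passed. With 6 cultures that share the treatment groups, 253 genes reached an r of 0.9. Among the 10 genes themselves, r with CYP7A1 was 0.888 for NR1H4, 0.610 for CYP7B1, 0.470 for NR5A2, 0.339 for NR0B2, 0.184 for SLC10A1, 0.127 for CYP8B1 and -0.228 for CYP27A1. For ABCB11 (0.848) and FGF19 (-0.601) it rests on at most 2 reads per culture.

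Beyond the 10 genes, 69 further genes of the pathway were followed in 5 lists, and 63 of them had enough reads. With TGFβ, 3 of the 63 were higher (4.76%, against 3.11% of all tested genes) and 8 were lower (12.7%, against 1.01%). Genes of these lists were better covered than most, with a median of 28.2 CPM against 6.82, and among the 10411 genes with at least 10 CPM the shares were 4.68% higher and 1.58% lower. With the block 9 were higher (14.3%) and 20 lower (31.7%), against 8.08% and 3.75% of all genes. Shares with the block are not given for the better covered genes alone. The lists were chosen with earlier results of these data known. Of the 63 log2 fold changes, whose median was -0.06, 36 were negative. The counts rest on all 6 cultures: without vehicle culture 1, 2 or 3 in turn, 4, 2 and 2 genes were lower and 1, 0 and 0 higher, and without TGFβ culture 1, 2 or 3, 3, 4 and 3 were lower and 1, 0 and 1 higher. SULT2A1 and PPARGC1A passed in all 13 alternative fits, and each of the other 9 missed the threshold in 5 or 6 of the 6 fits with a culture left out.

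Among other enzymes of synthesis, 10 of 12 genes were tested and 0 passed with edgeR, DESeq2 or limma-voom. At an unadjusted P under 0.05, 3 were lower and 0 higher, against 4.97% and 8.69% of all tested genes. HSD3B7, which follows CYP7A1 in the classic route, had a log2 fold change of 0.04 (SE 0.12), and AKR1D1, the 5β-reductase, of -0.42 (SE 0.22). With the block 4 were lower, against 3.75% of all tested genes. These were AKR1D1 (FDR 0.0111), AMACR (FDR 0.0283), ACOX2 (FDR 0.012) and ABCD3 (FDR 0.04), the last 3 of which serve side-chain shortening in peroxisomes. Of conjugation and modification, 8 genes were tested and 1 was lower. SULT2A1, which sulfates bile acids and steroids, fell from 113, 121 and 109 CPM in vehicle cultures 1, 2 and 3 to 76.5, 69.0 and 75.2 CPM in TGFβ cultures 1, 2 and 3. Its groups lay far apart, with a log2 fold change of -0.64 (SE 0.08, FDR 0.00125, and between 3.77e-10 and 0.00755 over the alternatives). BAAT, which joins bile acids to glycine or taurine, had a log2 fold change of -0.30 (FDR 0.585). UGT1A3 had 1.34 (FDR 0.101, and 0.0414 with the block) and shares exons with the other UGT1A genes, so its reads are uncertain.

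Of the transporters, 12 of 16 were tested, 3 were lower and 0 higher. At an unadjusted P under 0.05, 6 were lower and 0 higher, against 4.97% and 8.69% of all tested genes. DESeq2 called 6 lower and limma-voom 3, against 1.78% and 0.932% of all tested genes. Both called 0 higher, against 4.44% and 2.99%. ABCC2, the canalicular carrier of conjugates, fell from 312, 377 and 304 CPM to 238, 258 and 197 CPM in cultures 1, 2 and 3 (log2 fold change -0.52, SE 0.12, FDR 0.0356). ABCG2 fell by 0.42 on the log2 scale (SE 0.10, FDR 0.0454), and so did ATP8B1, the lipid flippase of the canalicular membrane (0.42, SE 0.10, FDR 0.0441). With the block, and also with DESeq2, ABCG5 and ABCG8, which together export sterols, and SLC51B, a subunit of the basolateral bile acid carrier, were also lower, by log2 fold changes of -0.36, -0.41 and -0.63 with the block (FDR 0.00724, 0.00327 and 0.00262), and ABCC3 was higher with the block (FDR 0.0362). SLC51A, the partner of SLC51B, had a log2 fold change of 0.24 (FDR 0.51), and ABCB4, the phospholipid exporter, of 0.02 (FDR 0.976). SLCO1B1 was at 0 reads in all cultures.

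All 19 nuclear receptors and cofactors were tested, 3 were higher and 2 lower. PPARGC1A, a coactivator of NR1H4 and HNF4A, fell from 21.1, 25.3 and 21.0 CPM in vehicle cultures 1, 2 and 3 to 14.03, 13.8 and 12.3 CPM in TGFβ cultures 1, 2 and 3 (log2 fold change -0.75, SE 0.11, FDR 0.00331, and between 3.81e-08 and 0.0155 over the alternatives). Its groups were well apart. NR2F1 fell by 0.40 on the log2 scale (SE 0.08, FDR 0.023). VDR, a receptor for vitamin D and lithocholic acid, rose from 1.86, 1.83 and 1.67 CPM to 2.62, 3.84 and 3.22 CPM (log2 fold change 0.85, SE 0.18, FDR 0.0309). NR1I2, the xenobiotic receptor PXR, rose by 0.38 (SE 0.09, FDR 0.0386) and MAFG, a repressor of bile acid genes downstream of FXR, by 0.37 (SE 0.08, FDR 0.0401); MAFG missed the threshold with total-count scaling (FDR 0.0674, over a range from 0.00142 to 0.204). HNF4A, which drives CYP7A1 and CYP8B1, had a log2 fold change of 0.02 (SE 0.08, FDR 0.96). RXRA, the partner of NR1H4, had 0.41 (SE 0.13, FDR 0.149) and passed with the block (FDR 0.000245), as did FOXO1 above, and PPARA, NR1I3, PROX1 and NR2F2 below, vehicle; FOXO1 and NR1I3 also passed with DESeq2.

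For the FGF19 receptors and ERK feedback genes, 14 of 14 were tested, 2 were lower and 0 higher. At an unadjusted P under 0.05, 1 was higher and 2 lower, against 8.69% and 4.97% of all tested genes. DESeq2 also called 1 higher and 2 lower, against 4.44% and 1.78%. KLB, the coreceptor for FGF19, fell from 271, 223 and 234 CPM in vehicle cultures 1, 2 and 3 to 200, 137 and 157 CPM in TGFβ cultures 1, 2 and 3. The log2 fold change was -0.56 (SE 0.13, FDR 0.0478, and 4.9e-05 with the block). FGFR4, the receptor it serves, had 330 CPM with vehicle and 345 CPM with TGFβ on average (log2 fold change 0.06, SE 0.10, FDR 0.867). DUSP6, a phosphatase that restrains ERK and rises with ERK activity, fell from 48.1, 61.9 and 51.8 CPM to 24.5, 41.1 and 29.6 CPM (log2 fold change -0.76, SE 0.17, FDR 0.0355). Without the filter on low counts DUSP6 missed the threshold (FDR 0.261, the highest over its alternatives, the lowest being 3.17e-05), and KLB and DUSP6 missed it narrowly (FDR 0.0513 and 0.0516) when every library had to hold 10 counts. Among other ERK feedback genes, log2 fold changes were -0.13 for SPRY2, -0.04 for ETV5 and 0.35 for SPRY4 (FDR 0.748, 0.938 and 0.600). They were 0.15 for SPRED1, 0.12 for SPRED2 and 0.18 for ETV4 (FDR 0.619, 0.530 and 0.555). With the block 2 genes of this list were higher, against 8.08% of all tested genes. These were SPRY4 (FDR 0.00271) and the receptor FGFR3 (log2 fold change 0.42, FDR 0.000155). FGFR3 was the gene that passed as higher with DESeq2.

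**Figure D5:**
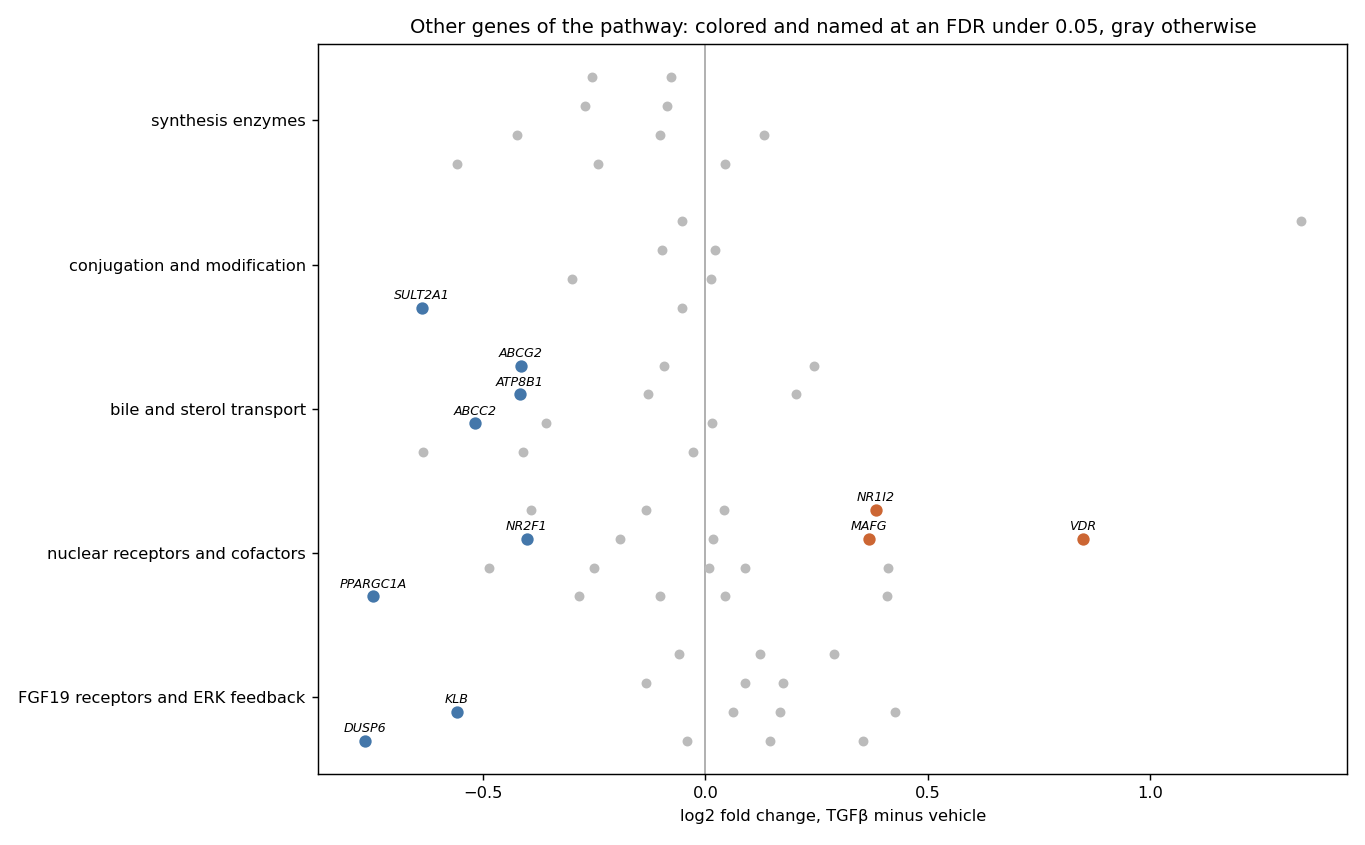
Log2 fold change of TGFβ over vehicle for the 63 tested genes of the 5 pathway lists, with lists on the vertical axis and points spread vertically for legibility. Blue points (8 genes) are lower and orange points (3 genes) higher at an FDR under 0.05, and gray points did not pass.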

How the data were processed

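RNA of 3 vehicle and 3 TGFβ cultures was measured by RNA-seq. The authors aligned paired reads to hg19 (TopHat2 2.0.6 and HTSeq in the submitters' processing notes) and deposited raw gene counts made with MAPRseq. The deposited RPKM values were, to within a relative deviation of 0.0186, counts over length and over a depth of 1.19 to 1.28 times the summed gene counts, and were used here only for levels between genes. The sources used here do not give the annotation release or the strand setting.

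Groups and culture numbers came from the sample labels, and the methods of the study call the sequenced samples biological replicates. Counts were compared with edgeR 4.0.16 (R 4.3.3), using TMM, filterByExpr and robust quasi-likelihood fits, unblocked, and FDR was taken over 22747 genes. SEs were derived from the F statistics. Log2 CPM used a prior count of 2. Same-numbered cultures deviated together across genes (r = 0.366, 0.227 and 0.316, against 0.0101 at most otherwise). Deviations were taken from each group's mean, so high values for same numbers force the others low. The low values are thus no separate evidence of pairing. From the same-numbered values the numbers were read as pairs, and blocked values stand beside calls that they changed. Alternatives were the block, leaving out each culture, limma-voom 3.58.1, DESeq2 1.42.0 or only its size factors, scaling to total counts, and a minimum of 10 counts per library or no filter. The steps were tested on simulated counts.

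The 10 genes and all lists were chosen with earlier results of these data known. Named in addition were list genes at an FDR under 0.05, TGFβ targets, the 5 genes most correlated with CYP7A1, and genes overlapping the 10; genes that passed only with the block were named after their values were seen. PECAM1, a planned marker, could not be matched, and single values of some list genes are not reported here. Promoters were read from the RefSeq table on GRCh38.p14.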

Additional observations from a re-analysis of the deposited data

How the results depend on the processing

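Counts of the 8 tested genes lower with TGFβ moved from 1 to 3 with the replicate block, to 2 with total-count scaling and to 2 without a filter, and to 0 with at least 10 counts in every library, which left CYP7A1 untested. With DESeq2 the count was 1 as well, but it was NR1H4, and independent filtering gave CYP7A1 no FDR. Leaving out single cultures gave between 0 and 1. Counts of the 63 pathway genes moved with the replicate block, from 3 to 9 higher and from 8 to 20 lower, and with DESeq2 to 5 higher and 12 lower. Of all tested genes, DESeq2 called 4.44% higher and 1.78% lower. Leaving out single cultures gave between 0 and 1 higher and between 2 and 4 lower; fewer cultures were then compared.

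The direction changed in 3 of the 8 genes. With single replicates left out, CYP8B1 ranged from -0.083 to 0.0692 (0.0653 without replicate 1 of vehicle and 0.0692 without replicate 3 of TGFβ), NR5A2 from -0.70 to 0.0208 (positive without replicate 3 of vehicle) and SLC10A1 from -0.49 to 0.18 (0.05 without replicate 1 of vehicle, 0.05 without replicate 2 of TGFβ and 0.18 without replicate 3 of TGFβ). The cause was not tested. Of the 100 log2 fold changes of the 8 genes under alternatives that gave an FDR, 85 kept direction and side of the threshold. CYP7A1 ranged from -2.84 to -1.88 with single cultures left out. The block changed no other call among the 10 genes than those of NR0B2 and NR1H4. Depth limited CYP7A1 and CYP7B1, which were not tested at 10 counts per library, and ABCB11 and FGF19, which were at or under 3 reads.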
